A study of Mus musculus with 18 samples.

Results

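Malignant peripheral nerve sheath tumours (MPNST) of mice were compared with normal trigeminal nerve by bulk RNA sequencing, using only those tumour libraries that held little RNA of salivary gland or catecholamine-producing tissue. Of 6 libraries labelled MPNST, 4 had less than 1000 CPM (counts scaled by the library's total) of Bpifa2, a protein secreted by salivary gland, and less than 100 CPM of Th, the enzyme that starts catecholamine synthesis. These are MPNST libraries 1, 3, 4 and 5, and they were set against all 6 nerve libraries, so that 10 of the 18 libraries of the series entered the comparison. The tumour libraries were thus selected on measured values, the levels of Bpifa2 and Th, which are given only as a description. Bpifa2 was at 17.4, 0.702, 3.91 and 179 CPM in libraries 1, 3, 4 and 5, and the nearest library beyond its limit, MPNST 2, held 235222 CPM. Th was at 0.114, 0.772, 0 and 0 CPM in the kept libraries, and MPNST 6, the nearest beyond its limit, held 1736 CPM. Values of tumours are given throughout in the order of libraries 1, 3, 4 and 5, and those of nerve as the lowest and highest library and the median of 6. A change is the fitted log2 difference, tumour minus nerve, with its adjusted p from edgeR. The standard error (SE) beside it was derived from the test statistic.

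The nerve samples came from trigeminal nerves of Nf1 flox/flox, PostnCre- animals, which carry floxed Nf1 but no Cre and were not labelled as carrying floxed Arf. The tumours came from 6 mice, per the design text, of the genotype Nf1 flox/flox, Arf flox/flox and PostnCre+, in which a Cre recombinase under the Postn promoter deletes both genes in Postn-expressing cells and their descendants. Their labels give no body site, age or sex. Plexiform neurofibromas, benign tumours taken from trigeminal nerve of Nf1 flox/flox PostnCre+ animals (6 libraries), are set beside some values but were not tested here. The nerve and neurofibroma samples are labelled as reused from another series, so the series of origin, the tissue site, the Arf allele and the presence of a tumour cannot be told apart in any difference below. Nothing in the labels says whether the nerve samples came from separate animals, and p-values then measure only the spread between these samples.

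A peripheral nerve holds axons, the Schwann cells that ensheath or myelinate them, and a connective tissue of fibroblasts, perineurial cells, vessels and macrophages. Nf1 encodes neurofibromin, which switches RAS off, and Arf, a product of the Cdkn2a locus, keeps p53 stable by binding Mdm2. MPNST are sarcomas of the Schwann cell lineage, and their loss of Schwann markers, activity of RAS and mesenchymal gene expression are well described.

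Some libraries stood apart. Skeletal muscle genes took 8.62% of the counts of MPNST 3, against at most 0.0151% in the other kept tumours and 0.0851% in nerve. B and plasma cell genes took 0.374% of MPNST 1 and 0.0201%, 0.119% and 0.0275% of MPNST 3, 4 and 5. The library labelled MPNST 4 was low in the Schwann markers Sox10, Erbb3 and S100b. Nerve 6 held the most oligodendrocyte RNA (Mobp, a central myelin protein, at 856 CPM), and its Th of 170.5 CPM lay above the limit set for tumours. The nerve libraries held 14303986 to 20335697 counts each, and the kept tumours 13886399 to 23292486. Totals, the mitochondrially encoded share (3.21 to 7.26% in nerve, 3.02 to 9.36% in tumours) and the share of the 10 highest genes (5.91 to 10.0% and 6.48 to 15.2%) were compared by exact permutation over 210 regroupings, two-sided, and none passed the threshold (p = 0.9, 0.219 and 0.0619; adjusted 0.9, 0.329 and 0.186; smallest possible 0.00952). Spearman correlations over genes were 0.841 to 0.947 among kept tumours, 0.938 to 0.984 among nerves and 0.601 to 0.711 between tumours and nerves.

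Of 51290 genes, 17166 had enough counts to test, and 10419 of these (60.7%) passed an adjusted p of 0.05 in edgeR's quasi-likelihood test. The tumours were higher for 5650 genes (32.9%) and lower for 4769 (27.8%), with median log2 changes of 1.65 and -2.15 among the called genes. All 4 tumours lay above all 6 nerves for 3455 genes (20.1%) and below them for 4239 (24.7%). A change of at least 3 on the log2 scale was seen in 1216 genes called higher and 1797 called lower. The median log2 change of all genes tested was 0.12 with the TMM scaling used here and 0.01 with RLE scaling, so every change is relative to a centre that moves by about 0.1. RLE gave 5171 higher and 5172 lower calls, and the share of higher calls among called genes ranged from 47.3 to 60.1% over all alternatives (54.2% here). Leaving out 1 library gave 4924 to 5783 higher and 4367 to 5498 lower calls. The counts of each gene list below are to be read against 32.9% and 27.8% called in each direction over all genes and a median of 0.12.

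The columns of the deposited table fall into a pair of runs, nerve 1 to 3 with MPNST 1 and 4, and nerve 4 to 6 with MPNST 3 and 5, and no label says what a run is. With the run as a covariate, 5363 genes were higher and 4713 lower. Within the first run the fit called 3447 higher and 3843 lower, and within the second 3199 and 3260. Each of these has 2 tumours against 3 nerves. Of the 153 genes for which a change is given here, the sign differed from the whole comparison in the first run for Acta1 and Sox10 and in the second for Cd79a. Of 34 lists with at least 5 members called higher, that count was over 1.5 times smaller for 8 in the first run and for 11 in the second, and of 9 lists with at least 5 called lower for 4 and 5.

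**Figure D1:**
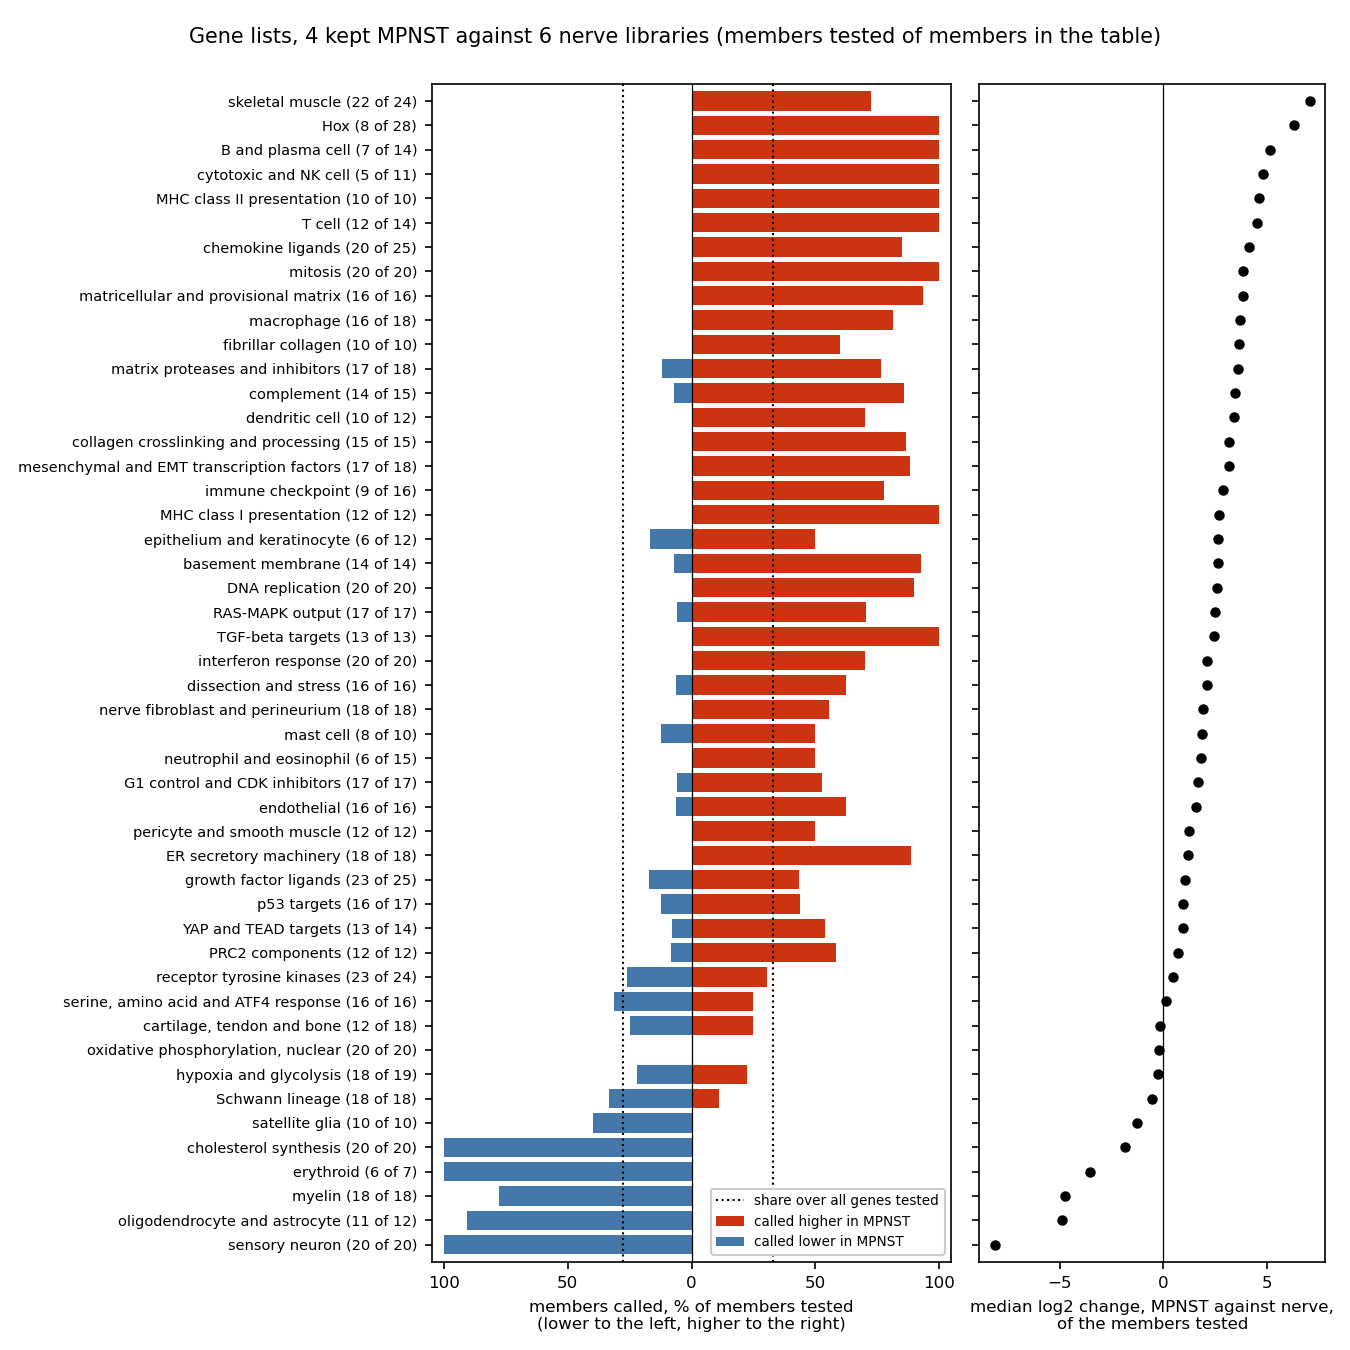
Gene lists with at least 5 members tested, without the sympathoadrenal list, 4 kept MPNST against 6 nerve libraries. Bars to the right give the percent of tested members called higher in MPNST, bars to the left the percent called lower, and dotted lines the shares over all genes tested (32.9% and 27.8%); the right panel gives each list's median log2 change. Sensory neuron and cholesterol synthesis members were all lower and mitosis and TGF-beta target members all higher among those tested.

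Nf1 and the other engineered genes were examined first. Nf1 was at 46.5, 52.2, 58.6 and 53.4 CPM in the tumours and 82.4 to 161 CPM, median 131, in nerve. It lay lower in all 4 tumours than in any nerve (log2 change -1.17, SE 0.23, adjusted p = 0.00131), and the 4 tumours differed little among themselves. Neurofibromas held 66.7 to 91.3 CPM. A count summed over the gene does not show which exons are present, so these values do not test the deletion. Cdkn2a, which encodes both Arf and the CDK inhibitor p16, was at 10.7, 9.76, 692 and 11.3 CPM and in nerve at 0.28 to 3.01 CPM, median 0.832. Its summed level was above nerve in every tumour (log2 change 7.29, SE 1.42, adjusted p = 0.00125), and MPNST 4 set the size of the change, which was 3.37 (adjusted p = 0.000856) without that library. The count joins both products, and how much of it is Arf cannot be told from these values. Postn, the matrix protein periostin whose promoter drives the Cre, was at 4431, 3173, 1445 and 2193 CPM against 10.9 to 27.5 CPM, median 23.2, in nerve and 83.3 to 254 CPM in neurofibroma. Every tumour exceeded every nerve (log2 change 7.13, SE 0.44, adjusted p = 8.97e-07).

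**Figure D2:**
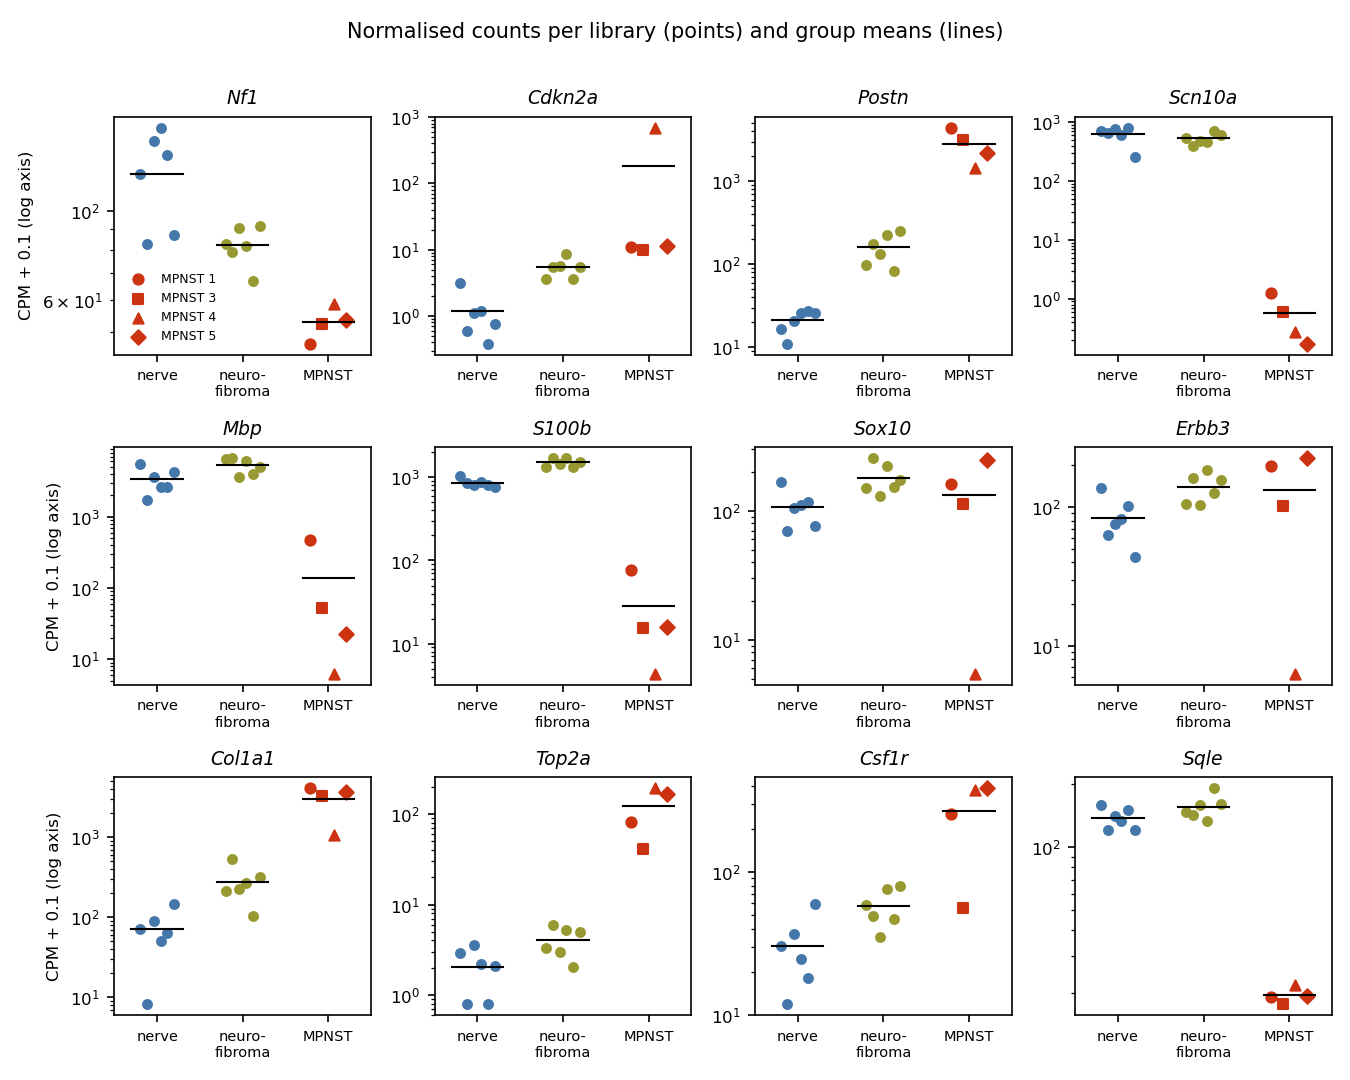
CPM plus 0.1 on a log axis for 12 genes in 6 nerve, 6 neurofibroma and 4 kept MPNST libraries; points are libraries, lines are group means, and marker shapes tell the 4 tumours apart. Nf1, Scn10a, S100b and Sqle are lower in each tumour than in any nerve, Postn, Col1a1 and Top2a higher, and Sox10 and Erbb3 are low only in MPNST 4 among the tumours.

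Transcripts of sensory neurons were nearly absent from the tumours. All 20 tested members of the sensory neuron list fell, with non-overlapping groups for 20 of them, and their median log2 change was -8.12. Scn10a, a sodium channel of pain-sensing neurons, was at 1.14, 0.491, 0.172 and 0.072 CPM in tumours and 259 to 805 CPM, median 678, in nerve (log2 change -10.33, SE 0.84, adjusted p = 4.49e-06). Prph, the intermediate filament peripherin, was at 3.02, 3.23, 0.344 and 0.288 CPM against 479.5 to 1070.2 CPM, median 992 (log2 change -8.94, SE 0.96, adjusted p = 2.91e-05). Both were lowest among nerves in nerve 6 and still far below that library in each tumour. Calca, the precursor of the neuropeptide CGRP, showed 2.68, 0.772, 2.19 and 1.01 CPM against 277 to 619.5 CPM, median 484 (log2 change -8.14, SE 0.46, adjusted p = 6.43e-07). Scn9a, another sodium channel of these neurons, was at 0.97, 0.702, 0.687 and 0.936 CPM against 216 to 493 CPM, median 445 (log2 change -8.91, SE 0.38, adjusted p = 1.26e-07). Neither gene's groups overlapped. The list took 1.27 to 2.22% of nerve counts and 0.00909 to 0.0214% of kept tumour counts. It took 0.759% of MPNST 6, which was left out for its Th. With all 6 MPNST libraries 14 of the 20 members were called lower (median -4.75), and Isl1, Prph and Scn9a were not called. How far the list fell thus depends on the choice of libraries. Isl1, Scn10a and the other transcription factor and channel genes of this list mark neuronal cell bodies, so the samples labelled as nerve held RNA of neurons as well as of nerve. In bulk samples fewer cells of a type and less RNA per cell cannot be told apart, here and for every cell type below.

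Several of the largest falls were neuronal. Among the 10 that the rule for named genes selects, Gpr26, an orphan receptor, Srrm3, a neuronal splicing factor, Actl6b, a subunit of the neuronal chromatin remodelling complex, Pou4f3, a transcription factor of sensory cells, Clvs2, a lipid-binding protein, Oprm1, the mu opioid receptor, and Ermn, a myelin-associated cytoskeletal protein, had no count in any kept tumour. Ermn was uneven among the nerves, at 0.203 to 64 CPM, median 10.8, and highest in nerve 6. Against a floor of 3 counts over all 4 tumours, Gpr26 was at least 1448-fold lower, Srrm3 at least 780.5-fold, Actl6b at least 537-fold and Pou4f3 at least 509.7-fold. Trpm8, the cold-sensing channel, was at 0, 0.0702, 0 and 0 CPM against 35.4 to 116 CPM, median 98.8 (log2 change -11.95, SE 0.76, adjusted p = 8.68e-07). Isl1, a transcription factor of sensory neurons, was at 0.0571, 0.0702, 0 and 0 CPM against 66.6 to 146 CPM, median 112 (log2 change -11.54, SE 0.58, adjusted p = 3.12e-07), and Calb2, the calcium buffer calretinin, was at 0.0571, 0.0702, 0 and 0 CPM against 34.3 to 146 CPM, median 65 (log2 change -10.94, SE 0.76, adjusted p = 1.68e-06). In these 3 genes the tumours held a few counts at most.

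Myelin genes fell with the neuronal ones but less evenly across tumours. Of 18 members tested 14 were lower, none passed as higher, and the median log2 change was -4.73. Mbp, a cytoplasmic myelin protein shared with the central nervous system, was at 477, 53.1, 6.14 and 22.3 CPM in tumours and 1734 to 5451 CPM, median 3108, in nerve (log2 change -4.60, SE 1.13, adjusted p = 0.00509). MPNST 1 was highest of the tumours and MPNST 4 lowest, and no tumour reached the lowest nerve. Pmp22, a peripheral myelin membrane protein, was at 343, 129, 40.9 and 131 CPM against 841 to 2877 CPM, median 1526 (log2 change -3.30, SE 0.58, adjusted p = 0.000695). Gjb1, the gap junction protein connexin 32, was at 0.628, 0.211, 0.0429 and 0 CPM against 7.52 to 40.7 CPM, median 21 (log2 change -6.59, SE 0.87, adjusted p = 0.000105). With 2 tumours against 3 nerves in the first column run 5 members were called. Neurofibromas held 3649 to 6719 CPM of Mbp.

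Schwann lineage genes did not move together. Of 18 tested, 2 rose and 6 fell (median -0.57). Sox10, the transcription factor that specifies glia of the neural crest, was at 161, 114, 5.32 and 248 CPM against 69.4 to 168 CPM, median 107. MPNST 5 lay above every nerve, MPNST 1 and 3 among them and MPNST 4 far below (log2 change 0.36, SE 0.68, adjusted p = 0.668). Without MPNST 4 the change was 0.76 (adjusted p = 0.0392), and without MPNST 5 it was -0.16 (0.871), so the call depends on 1 library. Erbb3, the neuregulin receptor of Schwann cells, followed the same order, 196, 102, 6.18 and 226 CPM against 43.5 to 138 CPM, median 78.4 (log2 change 0.72, SE 0.68, adjusted p = 0.381), with 1.11 (adjusted p = 0.0131) without MPNST 4. S100b, a calcium-binding protein of mature Schwann cells, was at 77.5, 15.4, 4.21 and 15.8 CPM against 769 to 1041 CPM, median 833 (log2 change -4.92, SE 0.74, adjusted p = 0.000252). It was low in all 4 tumours, lowest in MPNST 4. Sox2, a factor of immature Schwann cells, was at 24.2, 20.3, 79 and 108 CPM and 12.7 to 33.7 CPM, median 14.6 (log2 change 1.69, SE 0.45, adjusted p = 0.00772), with MPNST 4 and 5 above all nerves. Gfra1, a GDNF co-receptor of non-myelinating Schwann cells, was at 24.2, 23.7, 11.4 and 19.4 CPM against 128 to 214 CPM, median 157 (log2 change -3.02, SE 0.30, adjusted p = 1.95e-05). Leaving out MPNST 4 raised the number of risen members from 2 to 4. In the whole list only Olig1 was at 0 in a tumour, and the summed share of counts was 0.0525% in MPNST 4, 0.17 to 0.279% in the other tumours and 0.377 to 0.539% in nerve.

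Satellite glia, which wrap neuronal cell bodies in ganglia, were represented by 10 genes, of which 4 fell and 6 were not called (median -1.27). Fabp7, a fatty acid binding protein of these glia, was at 6.39, 3.37, 0.3 and 4.18 CPM against 63.1 to 197 CPM, median 182 (log2 change -5.46, SE 0.74, adjusted p = 0.000127). Kcnj10, their potassium channel, was at 38.6, 38.6, 16.1 and 44.9 CPM against 66.4 to 217 CPM, median 83.4 (log2 change -1.51, SE 0.41, adjusted p = 0.009). Hmgcs1, an enzyme of cholesterol synthesis that is abundant in satellite glia, was at 98.5, 82.7, 47.8 and 85.9 CPM against 607 to 802 CPM, median 646 (log2 change -3.06, SE 0.27, adjusted p = 7.21e-06). The groups did not overlap in any of these 3 genes.

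Most of the listed extracellular matrix genes were higher in the tumours. Among fibrillar collagens 6 of 10 tested were higher and none lower (median 3.61). Col1a1, a chain of type I collagen, was at 4096, 3276, 1076 and 3689 CPM against 8.11 to 146 CPM, median 67.2 (log2 change 5.51, SE 0.68, adjusted p = 7.38e-05). Col1a2, its partner chain, was at 3568, 2606, 2841 and 2914 CPM against 45.3 to 248 CPM, median 215 (log2 change 4.07, SE 0.39, adjusted p = 1.48e-05), and Col3a1, type III collagen, at 4549, 2288, 3908 and 2278 CPM against 11.2 to 96.1 CPM, median 67.6 (log2 change 5.81, SE 0.53, adjusted p = 1.07e-05). MPNST 4 held the least Col1a1 of the tumours but was within the range of the others for Col3a1, and each tumour lay above each nerve. Col5a2, which nucleates type I fibrils, was at 809, 645, 868 and 496 CPM against 44.5 to 78 CPM, median 64.6 (log2 change 3.55, SE 0.24, adjusted p = 1.73e-06). The list took 0.925 to 1.4% of tumour counts and 0.04 to 0.0794% of nerve counts.

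Basement membrane genes, whose products surround Schwann cells and vessels, rose in 13 of 14 cases (median 2.61). Col4a1 was at 876, 611, 952 and 661 CPM against 64.9 to 155 CPM, median 104 (log2 change 2.88, SE 0.25, adjusted p = 7.61e-06), and its partner Col4a2 at 637, 473, 586 and 503 CPM against 60.9 to 112 CPM, median 74.4 (log2 change 2.86, SE 0.19, adjusted p = 1.37e-06). Both type IV collagen chains were of similar level in the 4 tumours. Col18a1, the source of endostatin, was at 464, 443, 479.7 and 847 CPM against 20.3 to 36.9 CPM, median 22.8 (log2 change 4.53, SE 0.25, adjusted p = 5.48e-07), and was highest in MPNST 5. Lama2, the laminin chain of Schwann cell and muscle basement membranes, was at 185, 109, 254 and 97.7 CPM against 29.6 to 70.2 CPM, median 50.6 (log2 change 1.67, SE 0.28, adjusted p = 0.000511). The 1 member that fell was Col4a3, a chain of specialised basement membranes such as that of the kidney glomerulus, at 0.742, 0.211, 1.85 and 0.648 CPM against 1.82 to 8.88 CPM, median 2.52 (log2 change -2.19, SE 0.65, adjusted p = 0.0132). MPNST 4 overlapped with nerve for it.

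Of the matricellular and provisional matrix list 15 of 16 tested members rose (median 3.85), and of collagen crosslinking and processing genes 13 of 15 did (median 3.17). No member of either list fell. Fn1, fibronectin, was at 1041, 881, 2671 and 1119 CPM against 12.4 to 228 CPM, median 29.9 (log2 change 4.57, SE 0.85, adjusted p = 0.000976). Tnc, tenascin C, a matrix protein of embryonic and wounded tissue, was at 670.2, 521, 113 and 551 CPM against 1.55 to 4.87 CPM, median 2.89 (log2 change 7.43, SE 0.57, adjusted p = 3.26e-06). MPNST 4 was highest of the tumours for Fn1 and lowest for Tnc, and both genes separated the groups. Lox, a lysyl oxidase that crosslinks collagen, was at 136, 81.6, 179.6 and 69.6 CPM against 10.9 to 18.6 CPM, median 12 (log2 change 3.17, SE 0.25, adjusted p = 3.69e-06). Its relative Loxl1 was at 227, 103, 296 and 178 CPM against 1.03 to 11 CPM, median 2.92 (log2 change 5.44, SE 0.59, adjusted p = 3.22e-05), and Loxl2 at 102, 112, 116 and 69.9 CPM against 2.8 to 6.23 CPM, median 3.81 (log2 change 4.63, SE 0.27, adjusted p = 7.57e-07). All 3 oxidases were above nerve in every tumour. With only 2 tumours and 3 nerves in the second column run 9 matricellular members were called.

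The secretory machinery of the endoplasmic reticulum, which folds and exports such proteins, had 16 of 18 members higher and none lower, by a median of 1.19. P4hb, a protein disulphide isomerase that is also a subunit of the collagen prolyl hydroxylase, was at 651, 514, 679.7 and 704 CPM against 98.6 to 153 CPM, median 115 (log2 change 2.43, SE 0.15, adjusted p = 1.06e-06). Pdia4, another isomerase, was at 167, 102, 420.1 and 137 CPM against 50.3 to 72.8 CPM, median 70.0 (log2 change 1.66, SE 0.31, adjusted p = 0.000937), and Sec61b, a subunit of the translocation channel, at 76, 41.3, 57.1 and 68.6 CPM against 11.1 to 19.1 CPM, median 13 (log2 change 2.19, SE 0.18, adjusted p = 5.02e-06). Hspa5, the chaperone BiP, changed least of those named, 456, 435, 600.3 and 344 CPM against 218 to 348 CPM, median 295 (log2 change 0.71, SE 0.20, adjusted p = 0.00973), and MPNST 5 lay inside the nerve range. Within the second column run 9 members of this list were called.

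Matrix proteases and their inhibitors were higher for 13 and lower for 2 of 17 members tested of 18 (median 3.59). Mmp2, a gelatinase made by fibroblasts, was at 402, 199, 484 and 234 CPM against 4.08 to 27.8 CPM, median 14.3 (log2 change 4.45, SE 0.44, adjusted p = 1.78e-05). Mmp14, the membrane protease that activates it, was at 300.5, 183, 775 and 338 CPM against 15.9 to 38.6 CPM, median 27.2 (log2 change 3.84, SE 0.35, adjusted p = 9.74e-06), and the inhibitor Timp1 at 96.9, 58.5, 132 and 53.9 CPM against 0.35 to 2.08 CPM, median 1.08 (log2 change 6.22, SE 0.45, adjusted p = 2.31e-06). These 3 were above nerve in each tumour. Mmp9, the other gelatinase, was at 5.48, 0.491, 140 and 28.4 CPM against 0.699 to 2.55 CPM, median 1.3 (log2 change 4.77, SE 1.09, adjusted p = 0.00326), with MPNST 3 below the nerve range and a change of 2.89 without MPNST 4. Adamts5, an aggrecan-cleaving protease, was lower, 81.3, 27, 43.2 and 25.2 CPM against 81.3 to 158 CPM, median 108 (log2 change -1.33, SE 0.32, adjusted p = 0.00434), although MPNST 1 overlapped with nerve. The other member that fell was Timp2, an inhibitor, named after its value was seen. Mmp3, stromelysin 1, had the largest fitted rise of the named genes, 215, 7.72, 776 and 93.5 CPM against 0 to 0.295 CPM, median 0.0993 (log2 change 10.75, SE 1.22, adjusted p = 3.93e-05). MPNST 4 held the most and MPNST 3 the least.

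The 250 bases before the start of Mmp3 are shown because they hold 1 match to the AP-1 motif TGANTCA, the letters bound by Fos and Jun proteins downstream of RAS. The match, in capitals, begins 46 bases before the start. The stretch is chr9:7445572-7445821 of GRCm38.p6 (+ strand, RefSeq).
Mmp3: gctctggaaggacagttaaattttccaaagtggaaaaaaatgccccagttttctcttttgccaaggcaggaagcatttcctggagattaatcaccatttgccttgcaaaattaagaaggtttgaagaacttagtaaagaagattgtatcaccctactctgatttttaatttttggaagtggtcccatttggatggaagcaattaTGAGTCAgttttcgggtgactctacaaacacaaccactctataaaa
The motif was searched on both strands (it reads the same on both) in the promoters of the called members that the RefSeq table holds. Of 13 risen proteases 6 matched an entry and 2 of these held the motif (33.3%). Of 12 risen RAS-MAPK genes 6 matched and 1 held it (16.7%), and so did 1856 of 27025 promoters of all genes (6.87%). Those with no entry included Mmp2, Mmp9, Mmp19, Adamts4, Fap and Plau, and Etv4, Phlda1, Fosl1, Egr1, Ets1 and Ccnd1. With 6 promoters a list these shares are a description, and a match is not a binding site.

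Genes of the cell cycle rose together. All 20 members of the mitosis list were higher, in 18 cases without overlap, with a median log2 change of 3.85. Top2a, the topoisomerase that untangles replicated DNA, was at 81.4, 41.4, 194 and 169 CPM against 0.688 to 3.44 CPM, median 2.03 (log2 change 5.96, SE 0.55, adjusted p = 1.08e-05). Mki67, the proliferation antigen Ki-67, was at 60.0, 37.1, 158 and 136 CPM against 1.48 to 7.48 CPM, median 2.96 (log2 change 4.85, SE 0.49, adjusted p = 2.09e-05). Ccnb1 and Ccnb2 encode the cyclins of mitotic entry, and Ccnb1 was at 6.39, 7.93, 54 and 19 CPM against 0.344 to 1.78 CPM, median 0.79 (log2 change 4.68, SE 0.64, adjusted p = 0.000133). Library MPNST 4 was highest and, for Top2a and Mki67, MPNST 3 lowest of the tumours, yet above each nerve.

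In the DNA replication list 18 of 20 members rose and none fell (median 2.60). Mcm2, a subunit of the replicative helicase, was at 25, 8.71, 54.4 and 35.9 CPM against 4.28 to 5.89 CPM, median 5.12 (log2 change 2.60, SE 0.34, adjusted p = 0.000112), and Mcm5, another, at 26.9, 8.43, 38.9 and 30.5 CPM against 2.84 to 3.93 CPM, median 3.61 (log2 change 2.91, SE 0.30, adjusted p = 2.34e-05). Tyms, thymidylate synthase, was at 18.7, 14, 32.7 and 28 CPM against 0.984 to 2.4 CPM, median 1.9 (log2 change 3.77, SE 0.29, adjusted p = 3.52e-06). For these 3 no tumour overlapped with nerve. Pcna, the sliding clamp of DNA polymerase, was at 93.5, 41.9, 89.6 and 129.8 CPM against 32.8 to 47.5 CPM, median 40.8 (log2 change 1.14, SE 0.21, adjusted p = 0.00104), and MPNST 3 lay inside the nerve range. MPNST 3 had the lowest summed share of both lists among the tumours, 0.0219% for replication and 0.0216% for mitosis, against 0.0136 to 0.0164% and 0.00299 to 0.00436% in nerve.

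Promoters of 4 risen cell cycle genes are shown because they hold letters known from the cell cycle control of such genes. These are the CHR element TTTGAA and the CCAAT box CCAAT of mitotic genes, and the E2F motif, searched as TTTCCCGC, TTTGGCGC or TTTGCCGC, of replication genes. Both strands were searched, and no matches in capitals overlap in these stretches. Each stretch holds the 250 bases before the RefSeq start on GRCm38.p6. Capitals mark the CHR and CCAAT matches in Top2a and Ccnb2, and the E2F matches alone in Cdc6 and Mcm6. Top2a (chr11:99024190-99024439, - strand) and Ccnb2 (chr9:70421555-70421804, - strand) show CHR and CCAAT matches. Cdc6 (chr11:98907901-98908150, + strand) and Mcm6 (chr1:128359706-128359955, - strand) show E2F matches.
Top2a: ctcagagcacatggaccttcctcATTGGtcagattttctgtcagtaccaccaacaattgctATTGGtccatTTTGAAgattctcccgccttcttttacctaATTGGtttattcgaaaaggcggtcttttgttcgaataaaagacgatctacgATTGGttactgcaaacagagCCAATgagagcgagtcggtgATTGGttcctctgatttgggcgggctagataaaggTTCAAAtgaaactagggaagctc
Ccnb2: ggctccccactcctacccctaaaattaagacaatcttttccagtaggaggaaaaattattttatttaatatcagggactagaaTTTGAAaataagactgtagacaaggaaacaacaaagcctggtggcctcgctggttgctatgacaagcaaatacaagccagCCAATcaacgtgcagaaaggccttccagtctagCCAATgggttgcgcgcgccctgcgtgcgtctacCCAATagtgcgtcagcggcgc
Cdc6: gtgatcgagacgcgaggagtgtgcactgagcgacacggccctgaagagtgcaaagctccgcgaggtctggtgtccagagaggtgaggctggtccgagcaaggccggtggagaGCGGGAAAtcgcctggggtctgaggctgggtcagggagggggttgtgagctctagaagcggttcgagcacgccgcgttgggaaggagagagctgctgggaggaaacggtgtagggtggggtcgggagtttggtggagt
Mcm6: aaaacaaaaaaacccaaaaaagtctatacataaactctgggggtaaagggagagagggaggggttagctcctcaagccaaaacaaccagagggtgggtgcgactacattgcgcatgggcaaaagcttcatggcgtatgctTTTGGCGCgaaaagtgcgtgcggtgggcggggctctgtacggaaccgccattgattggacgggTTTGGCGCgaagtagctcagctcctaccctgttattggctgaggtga
The Top2a stretch holds 2 CHR and 6 CCAAT matches, the CHR nearest the start beginning 23 bases before it, and that of Ccnb2 holds 1 CHR and 3 CCAAT matches. Cdc6 has 1 E2F match, 138 bases before its start, and Mcm6 has 2, at 110 and 47 bases. Of 20 risen mitosis genes 16 matched an entry, and 14 of these (87.5%) held a CCAAT box, 6 (37.5%) the CHR and 0 an E2F match. Of 18 risen replication genes 15 matched, and 11 of these (73.3%) held a CCAAT box, 2 (13.3%) the CHR and 5 (33.3%) an E2F match. Over all 27025 promoters the shares were 34.5% for CCAAT, 16.3% for CHR and 1.68% for E2F. Aurkb, Kif20a, Ccna2 and Tpx2 and, for replication, Mcm4, Gins2 and Pole had no entry. Ccnb2 (log2 change 4.95, SE 0.52), Cdc6, a loader of the helicase (3.33, SE 0.45), and Mcm6, a subunit of it (3.09, SE 0.49), were chosen for this display after their values were seen (adjusted p = 2.29e-05, 0.000116 and 0.000363). A match describes the letters and is neither a site nor a cause of the rise.

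Regulators of the G1 phase were higher for 9 and lower for 1 of 17 members (median 1.68). Ccnd1, cyclin D1, was at 512, 498, 768 and 661 CPM against 7.52 to 45.8 CPM, median 35.6 (log2 change 4.26, SE 0.41, adjusted p = 1.44e-05), and its kinase Cdk4 at 124, 84.4, 230.2 and 219 CPM against 23.6 to 36.5 CPM, median 28.5 (log2 change 2.50, SE 0.24, adjusted p = 1.3e-05). Every tumour was above every nerve for both. Neurofibromas, at 102 to 248 CPM, lay between the groups for Ccnd1. The CDK inhibitors went both ways. Cdkn2c, p18, was at 30.5, 12.8, 26.3 and 26.9 CPM against 2.64 to 3.86 CPM, median 3.25 (log2 change 2.90, SE 0.21, adjusted p = 2.39e-06), while Cdkn2d, p19, fell to 17.9, 10.7, 10.5 and 14.3 CPM from 45.6 to 71 CPM, median 59 (log2 change -2.07, SE 0.22, adjusted p = 2.66e-05). Leaving out MPNST 4 gave 3 members lower and leaving out nerve 2, nerve 6 or MPNST 3 gave 2.

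Genes of the p53 pathway, listed because Arf acts through p53, were split, with 7 higher, 2 lower and 7 not called of 16 tested (median 0.92). Trp53 itself was at 58.1, 27.5, 81.8 and 47.8 CPM against 14.2 to 22.2 CPM, median 18.2 (log2 change 1.60, SE 0.21, adjusted p = 0.000114). Mdm2, the ligase that degrades p53 and is also its target, was at 47.7, 65.2, 66.7 and 100.2 CPM against 35.7 to 43 CPM, median 38.9 (log2 change 0.91, SE 0.20, adjusted p = 0.00239). Both were above all nerves in the 4 tumours. Zmat3, a p53 target that binds RNA, was at 25.9, 26.8, 28.6 and 25.9 CPM against 78.2 to 124 CPM, median 111 (log2 change -1.91, SE 0.18, adjusted p = 1.17e-05), below nerve in each tumour and nearly constant among them. The other member that fell, Perp, was named after its value was seen. Cdkn1a, the inhibitor p21, was at 39.1, 87.7, 12.8 and 20.9 CPM, with MPNST 3 inside the nerve range of 41.2 to 133 CPM and the other 3 tumours below it.

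Polycomb repressive complex 2, whose subunits Suz12 and Eed are often lost in human MPNST, had 7 of 12 members higher and 1 lower (median 0.71). Ezh2, its methyltransferase in dividing cells, was at 48.5, 30.1, 53.1 and 112 CPM against 3.52 to 8.32 CPM, median 5.41 (log2 change 3.44, SE 0.37, adjusted p = 3.13e-05), and Eed at 41, 34.5, 47.7 and 44.4 CPM against 11.6 to 15.7 CPM, median 12.8 (log2 change 1.70, SE 0.13, adjusted p = 3.52e-06). For both genes no tumour fell within the nerve range. Ezh1, the methyltransferase of resting cells, was lower, 69.8, 43.7, 49 and 37.3 CPM against 70.8 to 90.0 CPM, median 82.9 (log2 change -0.66, SE 0.17, adjusted p = 0.00801). Suz12 was at 50.9, 28.5, 71.4 and 59.4 CPM against 39.9 to 60.2 CPM, median 57.3, with 1 tumour below and 1 above the nerve range.

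The list of RAS-MAPK output genes had 12 of 17 members higher and 1 lower, with no overlap for 12 of the risen genes and a median of 2.47. Dusp6, the phosphatase induced by ERK, was at 103, 65.6, 339 and 133 CPM against 19.6 to 27.2 CPM, median 24.6 (log2 change 2.73, SE 0.34, adjusted p = 7.56e-05). Emp1, a membrane protein of the Pmp22 family, was at 885, 586, 1028 and 619 CPM against 6.88 to 17.2 CPM, median 11.3 (log2 change 6.11, SE 0.27, adjusted p = 1.84e-07). Both were higher in each tumour, and Emp1 reached 27.5 to 60.1 CPM in neurofibroma. Etv4, an ETS factor downstream of ERK, was at 6.33, 10.9, 154 and 13 CPM against 1.97 to 6.15 CPM, median 4.95 (log2 change 3.30, SE 0.80, adjusted p = 0.00479). Its change was 1.27 (adjusted p = 0.0163) without MPNST 4, which held the most. Spry4, another member, was not called (log2 change 0.604, SE 0.513, adjusted p = 0.329). It was at 11.81, 16.08, 86.98 and 18.8 CPM against 10.97 to 32.11 CPM, median 22.06. Only MPNST 4 lay above the nerve range for Spry4, and MPNST 1, 3 and 5 lay inside it. Spred2, a partner of neurofibromin that restrains RAS, was the member that fell, 26, 24.7, 64.2 and 28 CPM against 46.1 to 77.4 CPM, median 62 (log2 change -0.78, SE 0.27, adjusted p = 0.0255). MPNST 4 overlapped with nerve, and the call was lost without nerve 3, MPNST 1 or MPNST 5 (adjusted p = 0.0508 to 0.0576). A second member was called lower without MPNST 4.

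Receptor tyrosine kinases went both ways, with 7 higher and 6 lower of 23 tested (median 0.44). These counts are close to the shares over all genes (32.9% and 27.8%). Axl, a receptor of the Gas6 ligand, was at 459, 233, 917 and 538 CPM against 21.9 to 52 CPM, median 40.1 (log2 change 3.81, SE 0.32, adjusted p = 5.76e-06). Met, the receptor of hepatocyte growth factor, was at 26.4, 18.5, 102 and 44.9 CPM against 2.71 to 8.9 CPM, median 3.74 (log2 change 3.22, SE 0.49, adjusted p = 0.000276), and Egfr at 67.6, 39.2, 35.8 and 34.1 CPM against 1.38 to 18.5 CPM, median 7.02 (log2 change 2.26, SE 0.55, adjusted p = 0.00486). All 3 were above each nerve in each tumour. Pdgfra, a receptor of mesenchymal cells, was at 123, 45.4, 1497 and 78.1 CPM against 12.1 to 46 CPM, median 25.1 (log2 change 3.96, SE 0.87, adjusted p = 0.00272). MPNST 3 reached only the top of the nerve range, and without MPNST 4 the change was 1.65 (adjusted p = 0.00231).

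Of the growth factor ligands 10 rose and 4 fell among 23 tested (median 1.03). Nrg1, the axonal signal of Schwann cells that acts on Erbb3, was at 0.685, 0.0702, 1.5 and 6.34 CPM against 92.1 to 180.2 CPM, median 139 (log2 change -6.07, SE 0.88, adjusted p = 0.000198). MPNST 5 held the most of the tumours, still below every nerve. Tgfa, a ligand of Egfr, fell too, 3.6, 1.26, 1.16 and 1.01 CPM against 13 to 38.9 CPM, median 23.9 (log2 change -3.73, SE 0.45, adjusted p = 6.39e-05), whereas Ereg, another ligand of the same receptor, was at 5.99, 3.79, 20.4 and 2.95 CPM against 0 to 0.0594 CPM, median 0 (log2 change 8.90, SE 0.94, adjusted p = 1.55e-05). Ereg was nearly absent from nerve. Pdgfa, a ligand of Pdgfra, was at 122, 106, 64.7 and 106 CPM against 37.4 to 53.6 CPM, median 42.5 (log2 change 1.25, SE 0.20, adjusted p = 0.00041), and Pdgfb, of Pdgfrb, at 48, 47.3, 16.6 and 62.4 CPM against 5.45 to 8.97 CPM, median 6.95 (log2 change 2.69, SE 0.34, adjusted p = 8.09e-05).

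Targets of TGF-beta, the growth factor family that drives matrix synthesis, were all higher among the 13 tested (median 2.42), 9 of them without overlap. Tgfbi, a secreted matrix protein, was at 155, 125, 226 and 321 CPM against 11.2 to 51.2 CPM, median 38.4 (log2 change 2.56, SE 0.36, adjusted p = 0.000161). Skil, a feedback repressor of the pathway, was at 119.7, 70.4, 175 and 103 CPM against 17.1 to 29.8 CPM, median 20.5 (log2 change 2.44, SE 0.21, adjusted p = 6.01e-06). Both were higher in each tumour than in any nerve. Targets of YAP and TEAD, which respond to cell tension, were higher for 7 and lower for 1 of 13 (median 0.92). Ccn1 was at 52.1, 111, 26.4 and 31.9 CPM against 1.47 to 18.8 CPM, median 2.71 (log2 change 3.61, SE 0.79, adjusted p = 0.00251), and Ccn2 at 87, 96, 147 and 89.4 CPM against 6.37 to 51.9 CPM, median 9.66 (log2 change 2.67, SE 0.55, adjusted p = 0.00187). Both are secreted matricellular proteins that were highest among nerves in nerve 6. Nt5e, an ectonucleotidase that makes adenosine, was the member that fell, 34.9, 4.21, 4.81 and 6.05 CPM against 25.3 to 50.2 CPM, median 37.3 (log2 change -1.66, SE 0.58, adjusted p = 0.0281). MPNST 1 overlapped with nerve. Its call was lost without nerve 1 or 2 or without MPNST 3, 4 or 5 (adjusted p = 0.0502 to 0.0778), and the change was -2.96 without MPNST 1.

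Mesenchymal transcription factors rose in 15 of 17 cases and fell in none (median 3.16). Snai1 was at 11.6, 8.85, 36.9 and 10.2 CPM against 0.688 to 1.9 CPM, median 0.826 (log2 change 3.92, SE 0.48, adjusted p = 6.67e-05), and Snai2, also a repressor of epithelial genes, at 5.65, 8.21, 6.18 and 5.47 CPM against 0.135 to 1.07 CPM, median 0.49 (log2 change 3.62, SE 0.47, adjusted p = 9.45e-05). Runx2, a factor of bone-forming and mesenchymal cells, was at 25.2, 13.1, 24 and 26.8 CPM against 3.79 to 5.35 CPM, median 4.49 (log2 change 2.31, SE 0.20, adjusted p = 6.73e-06). Each tumour exceeded each nerve for these 3. Twist1, a factor of cranial and limb mesenchyme, was at 13.7, 9.62, 75.9 and 9.87 CPM against 0.344 to 4.65 CPM, median 1.51 (log2 change 3.65, SE 0.75, adjusted p = 0.00179), and MPNST 4 held several times more than the others. Without it the change was 2.45 (adjusted p = 0.00527). Hox genes, which record position along the body axis and are silent in the head, passed the count filter for 8 of 28, and those 8 were higher, which the filter favours. Hoxb4 was at 27.2, 15.4, 4.55 and 22.2 CPM against 0 to 0.297 CPM, median 0.0819 (log2 change 7.32, SE 0.79, adjusted p = 2.88e-05), and Hoxb7 at 5.36, 0.702, 1.07 and 11.2 CPM against 0 to 0.524 CPM, median 0.0552 (log2 change 5.26, SE 1.09, adjusted p = 0.00168). Hoxa5, not tested, was at 5.76, 9.55, 0.3 and 4.9 CPM and at 0 in every nerve. MPNST 4 was lowest in the summed Hox share (0.0071% against 0.0108 to 0.0166% in the other tumours and 0.000399 to 0.00132% in nerve), and without it 17 members were called higher. The nerve samples were trigeminal, and the site of the tumours is not given.

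Markers of fibroblasts and perineurium, the sheath around nerve fascicles, were higher for 10 of 18 members, and 8 were not called (median 1.90). Cldn1, a tight junction protein of perineurium, was at 258, 293, 3.91 and 192 CPM against 5.75 to 11.2 CPM, median 7.59 (log2 change 4.66, SE 0.83, adjusted p = 0.000735). It was below the nerve range in MPNST 4 and far above it in the others. Cygb, a globin of fibroblasts, was at 278, 155, 111 and 229 CPM against 38.6 to 76.9 CPM, median 47.2 (log2 change 1.96, SE 0.26, adjusted p = 0.000122), with no overlap. Slc2a1, a glucose transporter of perineurium and barrier vessels, was at 23.5, 26.4, 79.6 and 25.7 CPM against 50.6 to 128 CPM, median 68. It was not called (log2 change -0.93, SE 0.39, adjusted p = 0.062), with MPNST 1, 3 and 5 below the nerve range. None of the list was called lower in the whole comparison, and 3 were without MPNST 4. In the first column run 4 members were called higher.

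Endothelial genes rose in 10 of 16 cases and fell in 1 (median 1.56). Pecam1, an adhesion molecule of vessels, was at 220.4, 116, 38.4 and 127 CPM against 21.2 to 49.9 CPM, median 27.8 (log2 change 1.99, SE 0.42, adjusted p = 0.00204), and Cdh5, VE-cadherin, at 96, 87.1, 34.6 and 65.5 CPM against 12.1 to 26.8 CPM, median 17.4 (log2 change 2.03, SE 0.34, adjusted p = 0.00047). Plvap, the diaphragm protein of leaky vessels, was at 151, 100.5, 22.2 and 78 CPM against 1.33 to 13.1 CPM, median 3.39 (log2 change 4.31, SE 0.69, adjusted p = 0.000369). For Cdh5 and Plvap all 4 tumours exceeded the nerves, and for Pecam1 MPNST 4 lay among them. The member that fell was Slco1c1, a transporter of vessels with a tight barrier, at 0.171, 0.0702, 0.0429 and 0.072 CPM against 3.59 to 15.8 CPM, median 6.1 (log2 change -6.25, SE 0.65, adjusted p = 2.06e-05). A second member was called lower without MPNST 1, and in the first column run 3 members were called higher. Pericyte and smooth muscle genes rose in 6 of 12 (median 1.25), and in 3 without MPNST 3, the library rich in skeletal muscle RNA. Pdgfrb, the pericyte receptor of Pdgfb, was at 75.6, 41.8, 198 and 115 CPM against 29.2 to 50.5 CPM, median 37.4 (log2 change 1.52, SE 0.31, adjusted p = 0.00165), with MPNST 3 among the nerves. Cspg4, the proteoglycan NG2, was at 127, 83.7, 25.2 and 119.5 CPM against 9.69 to 25.1 CPM, median 16.1 (log2 change 2.49, SE 0.40, adjusted p = 0.000398).

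Macrophage genes were higher in 13 of 16 tested members of 18 and lower in none (median 3.67). Csf1r, the receptor that keeps macrophages alive, was at 253, 56, 370.4 and 384 CPM against 11.8 to 59.7 CPM, median 27.2 (log2 change 3.14, SE 0.50, adjusted p = 0.000376). Adgre1, the antigen F4/80, was at 73, 14, 118 and 179.5 CPM against 1.18 to 7.72 CPM, median 5.27 (log2 change 4.30, SE 0.64, adjusted p = 0.00023). C1qc, a complement chain made by macrophages, was at 412, 77.1, 391 and 492 CPM against 7.82 to 32.4 CPM, median 18 (log2 change 4.13, SE 0.50, adjusted p = 5.96e-05). MPNST 3 was lowest of the tumours for each and inside the nerve range for Csf1r. Cd68, a lysosomal protein, was at 59.1, 7.65, 39.6 and 66.5 CPM against 0.787 to 6.42 CPM, median 3.64 (log2 change 3.50, SE 0.62, adjusted p = 0.000722). Dendritic cell genes rose in 7 of 10 tested of 12 (median 3.38), and the count filter favours rises among those near 0 in nerve. Itgax, CD11c, was at 79.6, 6.04, 38.7 and 152 CPM against 0.203 to 1.6 CPM, median 0.869 (log2 change 6.28, SE 0.80, adjusted p = 8.41e-05). Xcr1, of cross-presenting cells, was at 14.8, 0.983, 2.75 and 35.1 CPM against 0.0492 to 1.07 CPM, median 0.138 (log2 change 5.58, SE 1.10, adjusted p = 0.00135). Both genes were lowest in MPNST 3.

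Lymphocyte genes were unevenly spread over the tumours. The 12 of 14 T cell genes that could be tested were higher (median 4.50), and 5 had no overlap. The count filter favours rises among genes near 0 in nerve, such as these. Without MPNST 1 the count was 11 and the median 3.09. Cd3e, a chain of the T cell receptor complex, was at 55.3, 0.562, 2.06 and 6.48 CPM against 0 to 0.831 CPM, median 0.172 (log2 change 5.63, SE 1.28, adjusted p = 0.00319). MPNST 1 held most of it and MPNST 3 was inside the nerve range, and the change was 3.23 without MPNST 1. Cd8a, of cytotoxic T cells, was at 27.9, 1.33, 3.26 and 7.71 CPM against 0 to 0.772 CPM, median 0.161 (log2 change 5.18, SE 1.02, adjusted p = 0.00135), and Cd4 at 40.0, 0.0702, 11.9 and 7.92 CPM against 0.203 to 3.11 CPM, median 0.385 (log2 change 4.12, SE 1.16, adjusted p = 0.0105). Tcf7, a factor of naive and memory T cells, was at 63.9, 9.62, 21.7 and 18.8 CPM against 1.42 to 3.4 CPM, median 1.86 (log2 change 3.74, SE 0.46, adjusted p = 6.38e-05), above nerve in each tumour. Of 11 cytotoxic and NK cell genes 5 were tested and higher, and 8 without MPNST 3, which the filter favours too. Klrd1, the receptor CD94, was at 9.41, 0.913, 3.78 and 24.3 CPM against 0.0655 to 0.297 CPM, median 0.121 (log2 change 5.95, SE 0.83, adjusted p = 0.000142), and Nkg7, of cytotoxic granules, at 18.2, 1.26, 1.55 and 14.3 CPM against 0 to 1.13 CPM, median 0.205 (log2 change 4.76, SE 1.06, adjusted p = 0.00274).

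Of 14 B and plasma cell genes 7 were tested and higher (median 5.11), which the count filter favours. Without MPNST 1, 6 were higher and 1 lower (median 2.90). Cd79a, a chain of the B cell receptor complex, was at 132, 0.281, 0.515 and 0.216 CPM against 0.816 to 3.73 CPM, median 1.22 (log2 change 4.30, SE 1.54, adjusted p = 0.0319). Only MPNST 1 exceeded the nerves, and the other 3 tumours lay below them. Without MPNST 1 the change was -2.22 (adjusted p = 0.0106), and the call was lost without any 1 of nerve 1 to 5 (0.0581 to 0.0629). Jchain, of antibody-secreting cells, was at 281, 5.05, 68.1 and 1.87 CPM against 0.27 to 4.45 CPM, median 0.885 (log2 change 5.94, SE 1.27, adjusted p = 0.00222), and MPNST 1 and 4 held most. Its change was 4.09 (adjusted p = 0.00856) without MPNST 1 and 6.05 (adjusted p = 0.0035) without MPNST 4. Sdc1, a proteoglycan of plasma cells that other cells also make, was at 63.8, 43.2, 131 and 43.4 CPM against 10.1 to 18.9 CPM, median 13.6 (log2 change 2.36, SE 0.28, adjusted p = 5.98e-05). The genes most particular to MPNST 1 by the rule for named genes were of this kind. Cr2, the complement receptor of B and follicular dendritic cells, was at 346 CPM there and at most 0.0859 in the other 3, and Ms4a1, a B cell surface protein, at 87.4 CPM in MPNST 1.

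Mast cell genes rose in 4 of 8 and fell in 1 (median 1.86). Cpa3, a mast cell protease, was at 5.88, 5.13, 5.11 and 5.69 CPM against 0.561 to 4.51 CPM, median 1.71 (log2 change 1.45, SE 0.51, adjusted p = 0.0296). The 1 that fell was Kit, a receptor also made by other cells, at 38.5, 3.02, 10.3 and 23.4 CPM against 40.7 to 88.9 CPM, median 65.3 (log2 change -1.81, SE 0.54, adjusted p = 0.0133). Neutrophil and eosinophil genes rose in 3 of 6 tested of 15 (median 1.81), and the count filter favours rises here too. Csf3r, the G-CSF receptor, was at 20.3, 4.07, 17.4 and 25.1 CPM against 0.699 to 3.4 CPM, median 1.53 (log2 change 3.11, SE 0.52, adjusted p = 0.000466). S100a8 and S100a9, the most abundant neutrophil proteins, were at 1.14, 0.913, 4.51 and 0.288 CPM and 2.62, 1.4, 4.55 and 0.288 CPM, against 0 to 3.88 CPM and 0.153 to 5.07 CPM in nerve, and only MPNST 4 exceeded a nerve range, for S100a8.

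Chemokine ligands, which draw leukocytes into tissue, were higher in 17 of 20 tested members of 25 (median 4.14). The count filter favours rises among those near 0 in nerve, such as Ccl8 and Cxcl13. Ccl8 was at 102, 26.5, 23.1 and 204 CPM against 0.0492 to 2.14 CPM, median 0.212 (log2 change 7.41, SE 1.01, adjusted p = 0.000128), Ccl9 at 61.6, 23.4, 75.3 and 78.8 CPM against 0.541 to 2.82 CPM, median 1.76 (log2 change 5.16, SE 0.53, adjusted p = 2.08e-05), and Ccl2, which draws monocytes, at 9.02, 3.65, 5.92 and 21.2 CPM against 0.295 to 1.57 CPM, median 1.18 (log2 change 3.26, SE 0.54, adjusted p = 0.000442). All 3 were above nerve in every tumour. Cxcl12, a ligand made by stromal cells, was at 294, 107, 249.8 and 169 CPM against 23.1 to 65.4 CPM, median 32.7 (log2 change 2.48, SE 0.31, adjusted p = 7.05e-05). Cxcl13, which attracts B cells, was at 178, 4.35, 119 and 118 CPM against 0.0699 to 1.31 CPM, median 0.255 (log2 change 7.97, SE 0.97, adjusted p = 6.38e-05), lowest in MPNST 3 and at a like level in the other 3.

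Antigen presentation rose in both branches. All 12 class I genes were higher, though for only 1 of them did no tumour overlap with nerve (median 2.69). H2-K1, a class I heavy chain, was at 1599, 128, 215 and 1212 CPM against 44.1 to 159.5 CPM, median 79.4 (log2 change 3.25, SE 0.65, adjusted p = 0.00149), and B2m, its light chain, at 1676, 252, 848 and 1505 CPM against 114 to 463 CPM, median 194 (log2 change 2.22, SE 0.49, adjusted p = 0.0026). Tap1, the peptide transporter, was at 154, 11.2, 19.3 and 126 CPM against 4.39 to 31.2 CPM, median 9.58 (log2 change 2.66, SE 0.74, adjusted p = 0.01), and Nlrc5, the activator of these genes, at 136, 5.05, 17.9 and 82.1 CPM against 3.31 to 14.6 CPM, median 5.34 (log2 change 3.14, SE 0.74, adjusted p = 0.00408). MPNST 1 and 5 were far above the nerves and MPNST 3 within their range for all 4 genes. H2 genes are near-identical to each other, so how reads were split between them is uncertain. Only 2 class I genes were called within the first column run.

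Class II genes rose in all 10 cases (median 4.58), 8 of them without overlap. Cd74, the invariant chain, was at 2942, 277, 1107 and 2872 CPM against 16.2 to 229 CPM, median 76.2 (log2 change 4.25, SE 0.73, adjusted p = 0.000578), H2-Aa at 1728, 156, 669 and 2220.2 CPM against 8.61 to 107 CPM, median 40.9 (log2 change 4.63, SE 0.75, adjusted p = 0.000393) and Ciita, the class II activator, at 121, 7.51, 24.6 and 112 CPM against 1.23 to 5.52 CPM, median 2.12 (log2 change 4.64, SE 0.70, adjusted p = 0.000255). Ctss, the protease that trims the invariant chain, was at 597, 85.1, 575 and 912 CPM against 7.69 to 46.5 CPM, median 16.9 (log2 change 4.54, SE 0.66, adjusted p = 0.000191). MPNST 3 was the lowest tumour for all of them and still above the highest nerve.

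Interferon-responsive genes rose in 14 of 20 and fell in none (median 2.08). Ifitm3, an antiviral membrane protein, was at 284, 139, 203 and 254 CPM against 18.6 to 43.3 CPM, median 26 (log2 change 2.98, SE 0.26, adjusted p = 6.79e-06). Isg15, a ubiquitin-like protein, was at 40.1, 7.72, 7.51 and 34.6 CPM against 1.38 to 8.31 CPM, median 3.1 (log2 change 2.52, SE 0.61, adjusted p = 0.00458), with MPNST 3 and 4 inside the nerve range. Immune checkpoint genes rose in 7 of 9 tested of 16, and in 13 without MPNST 3, which the count filter favours. Cd276, the molecule B7-H3 of tumour and stromal cells, was at 19.4, 18, 38.6 and 22 CPM against 3.31 to 9.18 CPM, median 4.34 (log2 change 2.32, SE 0.31, adjusted p = 0.000116), and Cd274, PD-L1, at 27.7, 2.6, 14.5 and 12.3 CPM against 6.16 to 19.9 CPM. Complement genes rose in 12 of 14 (median 3.46), with C3 at 867, 10.7, 30.4 and 218 CPM against 3.25 to 11.4 CPM, median 6.58 (log2 change 5.25, SE 1.01, adjusted p = 0.00119), C4b at 937, 275, 83.9 and 1187 CPM against 41.6 to 116 CPM, median 59.7 (log2 change 3.29, SE 0.60, adjusted p = 0.000901), C1ra at 129, 48, 29.1 and 99.6 CPM against 2.71 to 15.8 CPM, median 6.83 (log2 change 3.35, SE 0.49, adjusted p = 0.000201) and the receptor C5ar1 at 25.6, 10.6, 29.2 and 35.1 CPM against 0.541 to 2.7 CPM, median 2.03 (log2 change 3.80, SE 0.41, adjusted p = 2.99e-05). MPNST 1 and 5 held the most C3 and C4b, and MPNST 3 lay within the nerve range for C3 and MPNST 4 for C4b. Cd55, which protects cells from complement and is found on sensory neurons, was the member that fell, 25.9, 69.2, 4.04 and 4.25 CPM against 243 to 377 CPM, median 319.6 (log2 change -3.38, SE 0.85, adjusted p = 0.00591), and a second fell without MPNST 4.

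Cholesterol synthesis fell as a whole. All 20 members were lower, 18 without overlap, by a median of -1.87, and no alternative moved this count by more than 1.5 times. Sqle, squalene epoxidase, was at 19.2, 17.6, 21.8 and 19.2 CPM against 121 to 159 CPM, median 137 (log2 change -2.77, SE 0.14, adjusted p = 4.19e-07). The 4 tumours were alike for Sqle and each below each nerve. Myelin-forming glia are rich in these enzymes, and in the same tumours 14 of 18 myelin genes were lower and 4 of 10 satellite glia genes, among them Hmgcs1, which is also on the cholesterol list. Their part in the fall was not tested.

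Nuclear genes of oxidative phosphorylation gave 0 higher and 0 lower calls among 20 in edgeR's test (median -0.23). Without MPNST 3, 16 were lower (median -0.71). The calls also depended on scaling: with all 4 tumours, RLE gave 5 lower and column totals alone gave 6. The first column run, which does not hold MPNST 3, gave 8 lower and the second gave 0. Cox4i1, a subunit of cytochrome oxidase, was at 185, 209, 152 and 207 CPM against 231 to 318 CPM, median 243 (log2 change -0.35, SE 0.19, adjusted p = 0.132). Without MPNST 3 its change was -0.56 (adjusted p = 0.0151). It was also called lower with RLE scaling (adjusted p = 0.0499), with column totals (0.0465), by DESeq2 (0.0187) and in the fit with neurofibroma (0.017). MPNST 3 had the most RNA of the list, 0.468% of counts against 0.25 to 0.268% in the other tumours and 0.359 to 0.464% in nerve, together with its skeletal muscle RNA. Hypoxia and glycolysis genes went both ways, 4 higher and 4 lower of 18 (median -0.24), with 8 lower without MPNST 3 and 7 without MPNST 4. With all 4 tumours neither count exceeded the share over all genes (32.9% and 27.8%). Adm, adrenomedullin, was at 3.48, 4, 6.01 and 2.45 CPM against 0.59 to 1.24 CPM, median 0.825 (log2 change 2.25, SE 0.32, adjusted p = 0.00017), and Hk1, the hexokinase of neurons and glia, at 76, 36.6, 64.3 and 78.6 CPM against 202 to 276 CPM, median 266 (log2 change -1.96, SE 0.19, adjusted p = 1.59e-05). Of 16 amino acid genes 4 rose and 5 fell, near the shares over all genes, and 3 fell without nerve 1 or nerve 5. Shmt2, a mitochondrial enzyme of one-carbon metabolism, was at 27.8, 23.4, 42 and 47.2 CPM against 11.8 to 17.9 CPM, median 15.5 (log2 change 1.24, SE 0.19, adjusted p = 0.000271). Asns, asparagine synthetase, was at 19.3, 12.2, 35.7 and 6.77 CPM against 114 to 146 CPM, median 129 (log2 change -2.80, SE 0.38, adjusted p = 0.000131), and Slc7a1, an arginine transporter, at 32.4, 13.3, 16.9 and 20.7 CPM against 65.7 to 125 CPM, median 107 (log2 change -2.29, SE 0.26, adjusted p = 3.89e-05).

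Skeletal muscle genes were called higher for 16 of 22 tested members (median 7.04), and these calls rest on MPNST 3. Acta1, skeletal actin, was at 1.88, 11429, 2.02 and 0.216 CPM against 0.459 to 80.8 CPM, median 1.9 (log2 change 7.87, SE 2.85, adjusted p = 0.0342). Only MPNST 3 exceeded the nerves, and the other tumours lay low in the nerve range or under it. Without MPNST 3 the change of Acta1 was -3.56 (adjusted p = 0.119), 0 members of the list were higher and 4 lower, and the median was -2.46. The call of Acta1 was also lost without nerve 1, 2, 4, 5 or 6 (adjusted p = 0.0606 to 0.0669). No member was called in either direction by limma-voom with quality weights, at an adjusted p of 0.01 or with the column run as a covariate. DESeq2 called none either, but it gave no adjusted p for Acta1, so the lack of a call there is not a test result. The fast myosin Myh1 was at 0.685, 13286, 1.93 and 0.072 CPM, Myh4, another, at 1.77, 8089, 0.0859 and 0.36 CPM, the kinase Ckm at 2.17, 7107, 0.601 and 0.36 CPM and the calcium release channel Ryr1 at 3.31, 2105, 0.987 and 5.26 CPM. The muscle progenitor markers Myod1 and Myog were at 10.0 and 6.18 CPM in MPNST 3, at 0 in the other 3 tumours and at most at 0.356 and 0.237 CPM in nerve. Pax7, another, was at 1.05 CPM in MPNST 3, at 0 in the other 3 tumours and at 23.1 CPM in nerve 6. No tested member of the skeletal muscle list separated the 4 tumours from the 6 nerves. Nerve 3 held the most muscle RNA among nerves, 80.8 CPM of Acta1. Fits without the muscle lists called 5326 genes higher and 5033 lower, and fits without MPNST 3 called 5620 and 5498.

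**Figure D3:**
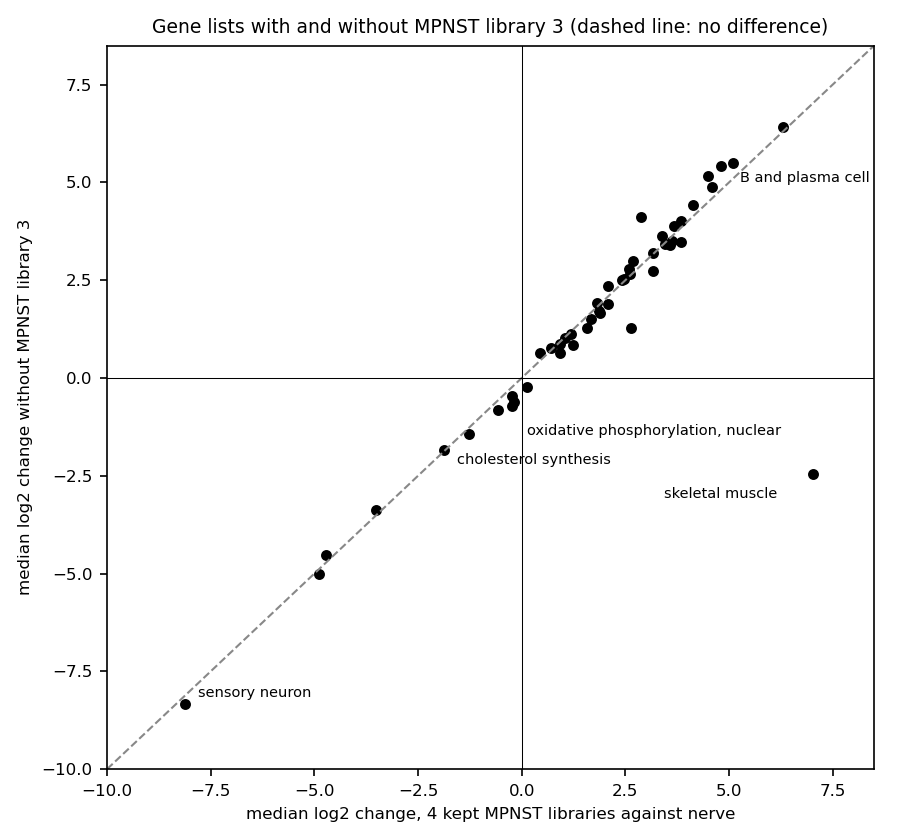
Median log2 change, MPNST against nerve, of the gene lists with at least 5 members tested, without the sympathoadrenal list. The horizontal axis has the 4 kept tumours and the vertical axis leaves out MPNST 3. Each point is a list, and the dashed line marks equal values. Skeletal muscle moved from 7.04 to -2.46, while sensory neuron and cholesterol synthesis lists lay near the line.

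Other neighbouring tissues were read in the same way. Adipocyte genes were tested for 4 of 10, of which 3 were higher, and 5 without MPNST 4, which the count filter favours. Fabp4, a fatty acid binding protein of fat cells and some vessels, was at 717, 109, 1.5 and 347 CPM against 0 to 4.63 CPM, median 0.398 (log2 change 8.14, SE 1.55, adjusted p = 0.00113), and Cfd, adipsin, at 600.4, 4.78, 1.55 and 473 CPM against 0 to 0.415 CPM, median 0.121 (log2 change 10.35, SE 1.69, adjusted p = 0.000412). MPNST 1 and 5 held most of both, and Adipoq, a hormone made by fat cells alone, was at 64.8, 0.913, 0.258 and 46.7 CPM. Epithelial genes rose in 3 of 6 and fell in 1, with 1 risen and 2 fallen without MPNST 1. Cartilage, tendon and bone genes rose in 3 and fell in 3 of 12, near the shares over all genes. Cilp, a matrix protein of cartilage and fibroblasts, was at 1163, 848, 69.2 and 304 CPM against 1.7 to 5.56 CPM, median 2.62 (log2 change 7.72, SE 0.79, adjusted p = 2.09e-05). Tumours held less RNA of oligodendrocytes and of blood. Mobp was at 0.628, 0.211, 0.558 and 0.432 CPM against 3.04 to 856 CPM, median 206 (log2 change -9.08, SE 1.64, adjusted p = 0.000786), Mag, a myelin adhesion protein of both oligodendrocytes and Schwann cells, at 4.45, 0.772, 1.33 and 4.32 CPM against 26.5 to 151 CPM, median 84.3 (log2 change -4.89, SE 0.69, adjusted p = 0.000162), and Hbb-bs, a haemoglobin chain, at 84.5, 29.7, 13.2 and 29.7 CPM against 67.7 to 1451 CPM, median 168 (log2 change -3.43, SE 1.01, adjusted p = 0.0135). All 6 erythroid genes tested were lower, but 0 by limma-voom with quality weights. So were 10 of 11 oligodendrocyte and astrocyte genes, but 3 by that fit. Salivary gland and sympathoadrenal genes are not compared because the choice of libraries used them.

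Genes that respond to stress and to tissue handling rose in 10 of 16 cases and fell in 1, or 2 without MPNST 3 (median 2.08). Socs3, a feedback inhibitor of cytokine signalling, was at 57.3, 70.4, 73.3 and 48.8 CPM against 5.96 to 10.6 CPM, median 8.57 (log2 change 2.94, SE 0.23, adjusted p = 4.26e-06). Fos was at 45.2, 69.3, 7.9 and 23 CPM against 2.31 to 27.2 CPM, median 4.09, with MPNST 4 and 5 inside the nerve range. Their summed share was 0.0661 to 0.0909% in tumours and 0.0308 to 0.0392% in nerve, and its part in other results was not tested.

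**Figure D4:**
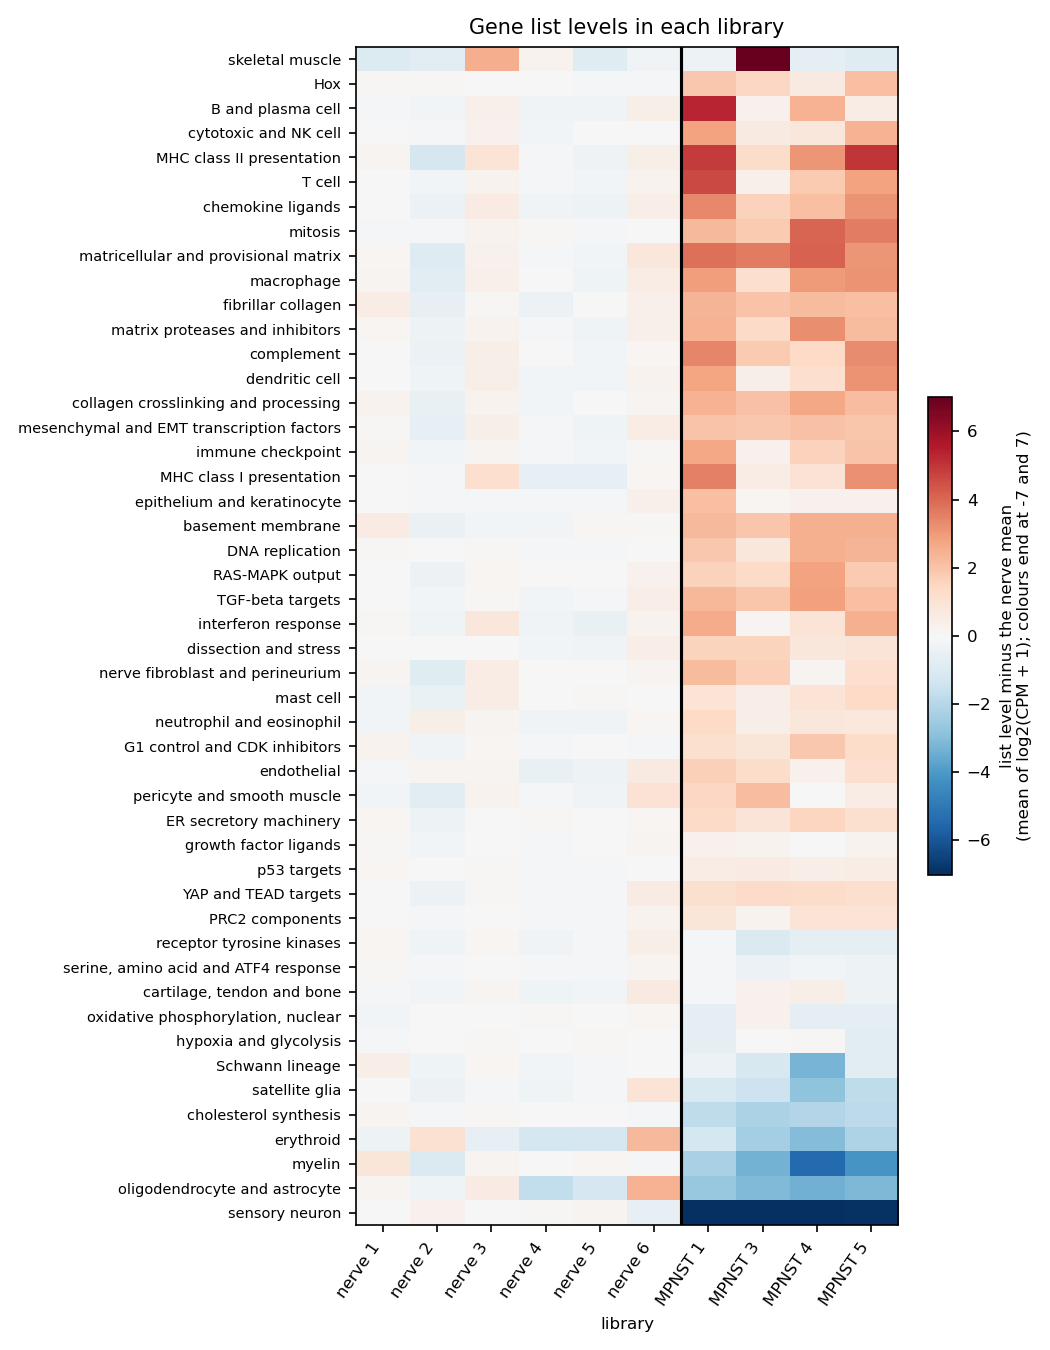
Level of the gene lists with at least 5 members tested, without the sympathoadrenal list, in each nerve and kept MPNST library. A level is the mean of log2(CPM + 1) over the members, minus the mean of the 6 nerves. Red is above and blue below nerve, and colours end at 7 units. Muscle stands out in MPNST 3, B and plasma cells in MPNST 1, low Schwann and myelin levels in MPNST 4, and class I and class II lists in MPNST 1 and 5.

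Among the kept tumours MPNST 3 and 4 correlated least. Besides its low Sox10, Erbb3 and S100b MPNST 4 held 1497 CPM of Pdgfra, 692 of Cdkn2a, 75.9 of Twist1 and 776 of Mmp3, in each case more than the other 3. Hmga2, a chromatin protein of embryonic cells, was at 0.913, 13.9, 823 and 198 CPM against 0.0594 to 0.816 CPM, median 0.201 (log2 change 9.73, SE 1.61, adjusted p = 0.000457), and Dnm3os, a non-coding transcript of mesenchyme that carries a pair of microRNAs, at 25, 13.8, 393 and 8.71 CPM against 0.0492 to 1.07 CPM, median 0.441 (log2 change 7.87, SE 1.23, adjusted p = 0.000319). Without MPNST 4 the change of Hmga2 was 7.93 and that of Dnm3os 5.21. By the rule for named genes the transcripts most particular to this library included Dmp1, a bone matrix protein, at 1452 CPM, Grem1, a BMP antagonist, at 182, and Mmp10, stromelysin 2, at 93.3. None of these 3 exceeded 3 CPM in the other 3 tumours or 4 CPM in nerve. Nptx1, a neuronal pentraxin, was at 0.513, 0.421, 409 and 0.288 CPM against 82.5 to 195 CPM in nerve, so that it was above nerve in MPNST 4 and far below it in the others. In MPNST 5 Igfbp2, a binding protein of insulin-like growth factors, was at 328 CPM against 4.33 to 106 CPM in nerve, Nr6a1, an embryonic nuclear receptor, at 87.3 against 7.98 to 23.8 CPM, and Obp1a, an odorant-binding protein, at 33.3 against 0 to 2.51 CPM. Kcnh2, a potassium channel, was at 8.33, 4.49, 5.11 and 88.1 CPM against 73.2 to 101 CPM, within the nerve range in MPNST 5 and below it in the other 3. The fifth gene of MPNST 5 was Bpifa2, used to choose the libraries. Hp, haptoglobin, was among the 10 largest rises, 115, 3.58, 3.61 and 238 CPM against 0 to 0.443 CPM, median 0.226 (log2 change 8.53, SE 1.30, adjusted p = 0.000262), and followed MPNST 1 and 5.

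**Figure D5:**
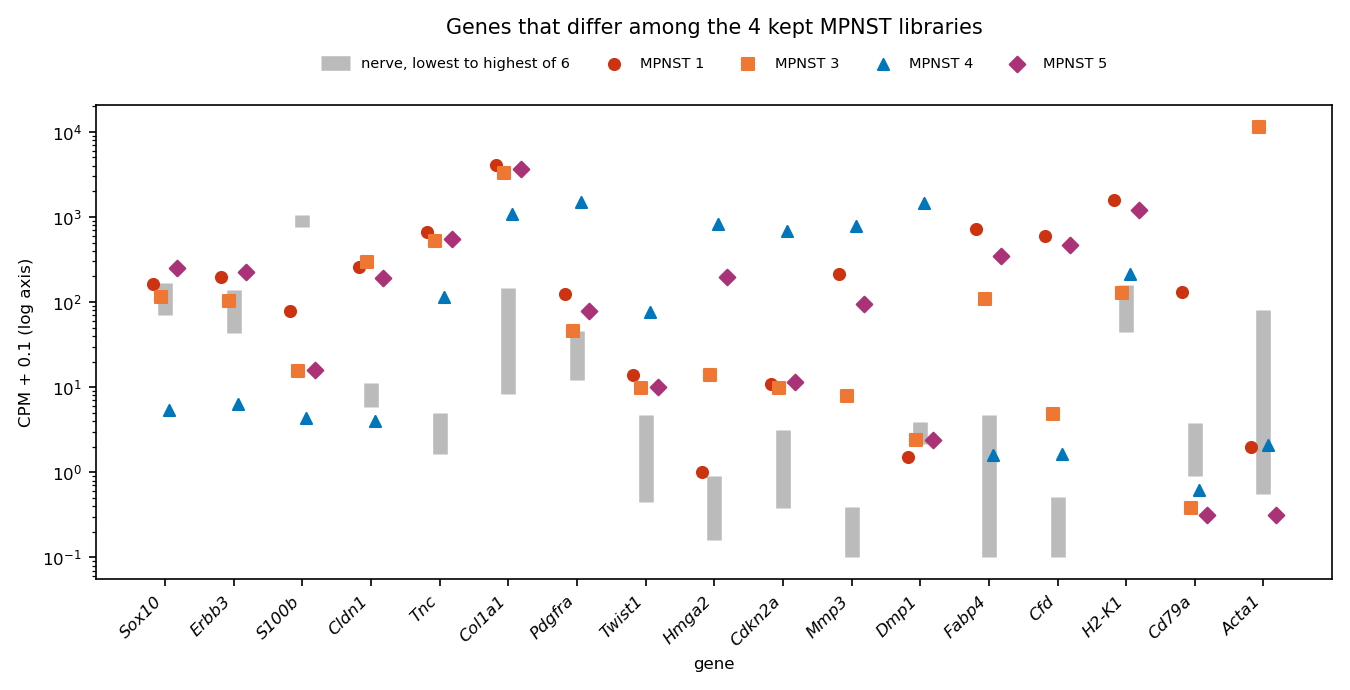
CPM plus 0.1 on a log axis for 17 genes that differ between the 4 kept tumours; grey bars span the 6 nerves and markers are single tumours. MPNST 4 is lowest for Sox10, Erbb3, S100b and Cldn1 and highest for Pdgfra, Twist1, Hmga2, Cdkn2a, Mmp3 and Dmp1; Cd79a is high only in MPNST 1 and Acta1 only in MPNST 3.

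Beside the neurofibromas, which share the trigeminal site and floxed Nf1 with the nerves, the tumours can be placed by their ranges. Col1a1 was at 103 to 538 CPM in neurofibroma, Tnc at 2.57 to 7.76 CPM and Top2a at 1.93 to 5.89 CPM, in each case below all 4 kept tumours. Sqle was at 133 to 192 CPM, S100b at 1331 to 1714 CPM and Scn10a at 392 to 719 CPM, above all 4. Sox10 was at 129 to 257 CPM, with MPNST 1 and 5 inside that range and MPNST 3 and 4 below it. Erbb3 was at 104 to 184 CPM, with MPNST 1 and 5 above and MPNST 3 and 4 below. These levels are set side by side only, because both comparisons would share the nerve libraries.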

How the data were processed

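RNA was measured in 18 libraries, of which 4 MPNST and 6 nerve libraries were compared. The deposited values are estimated counts per gene, not normalized by the authors. The submitters' processing notes name Salmon 1.4.0 and GRCm39 as well as FastQC and DESeq2. Annotation, settings and trimming were not given in the sources used here, and reads of near-identical or overlapping genes may have been split uncertainly between them. Per the labels' protocols, stranded libraries were made from mRNA.

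Counts were rounded and fitted with edgeR 4.0.16 in R 4.3.3 on the 10 libraries (filterByExpr, TMM, glmQLFit, glmQLFTest, two-sided, Benjamini-Hochberg adjusted p below 0.05 over all 17166 genes tested). The method was tested on simulated data with the spread of nerve in both groups and few genes changed. The tumours vary more and most genes were called here, so that test does not give the error rate of these calls. CPM scale each count by its column total. SE is the unshrunken log2 change divided by the square root of the F statistic, whereas the printed change is edgeR's shrunken one. It thus restates the test and is not a separate measure of spread. Library totals of 13886399 to 23292486 counts set the precision, and floors of 3 counts cover counting error only. Libraries of 1 group differed by a chi-square of at least 18.9 per degree of freedom, and none was a duplicate. Groups came from the labels, and 0 columns of per-sample values were left unused. Replicate numbers only name samples. The kept libraries, the 54 gene lists (845 entries) and the tests were chosen with earlier results of these data known.

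Named genes were Nf1, Cdkn2a, Postn, Bpifa2 and Th, the 10 largest changes in each direction (called, not overlapping, a mean of 10 CPM or more in 1 group, and a proper gene symbol), the first 3 genes of each list and its called member with the smallest p in each direction, and for each kept tumour the 5 genes of at least 20 CPM most above the other 3. Not every gene so named is printed, and some are not reported here. Promoter sequences, 250 bases before the start, came from RefSeq on GRCm38.p6, another build than the submitters', and were joined by symbol.

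Alternatives were other scalings (RLE, upper quartile, column totals), a CPM filter or none, DESeq2 1.42.0, voom of limma 3.58.1, a robust fit, a fit with neurofibroma, an adjusted p below 0.01, glmTreat, fits without mitochondrial or muscle genes, all 6 MPNST, and leaving out libraries. The voom fit used quality weights for the libraries. The column run as covariate, fits within each run and the fit without MPNST 3 and nerve 6 were chosen after seeing the data. Figures were drawn with matplotlib 3.10.9.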

Additional observations from a re-analysis of the deposited data

Results flagged for a closer look

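Groups of values, each a gene, list or library measure in the 4 kept tumours or the 6 nerves, were examined. In 49 of 420 (11.7%) the highest or lowest library lay farther from its neighbour than Dixon's 95% limit. Chance gives about 1 in 20 for unselected, independent groups. Here many genes belong to the lists, and some, such as Cd79a and Acta1, were also named for standing out in 1 tumour. The share therefore does not measure an excess over chance. All values below are on the log2(CPM + 1) scale, for a list the mean over its members. Trpm8 and Ereg are at or near 0 in most libraries of the group concerned, so that 1 count suffices.

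MPNST 3 stood highest for the skeletal muscle (9.71), muscle progenitor (2.38) and oxidative phosphorylation (7.51) lists and for Acta1 (13.5) and Trpm8 (0.0979). It stood lowest for the macrophage list (4.55), C1qc (6.29), Cxcl13 (2.42) and Runx2 (3.81). MPNST 4 was highest for Cdkn2a (9.44), Twist1 (6.26) and Spred2 (6.03), and lowest for Cldn1 (2.29), Tnc (6.83), Col1a1 (10.1) and Kcnj10 (4.09). In MPNST 1 the epithelium and keratinocyte list (3.22), Cd79a (7.06), Nt5e (5.17) and Tgfa (2.20) were highest, and in MPNST 5 Col18a1 (9.73).

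Among nerves, library 6 was lowest for the sensory neuron list (8.22), Scn10a (8.02), Calca (8.12), Prph (8.91), Scn9a (7.76) and Slc7a1 (6.06). It was highest for the satellite glia (8.04), sympathoadrenal (3.58) and epithelium (1.46) lists and for Ccn1 (4.31), Hoxb7 (0.608), Cxcl13 (1.21) and Cox4i1 (8.32). Nerve 3 was highest for the skeletal muscle (4.47) and melanocyte (1.24) lists, Ereg (0.0832), Xcr1 (1.05), Nkg7 (1.09), Jchain (2.45), Ccl8 (1.65) and Fabp4 (2.49). Nerve 2 was lowest for the secretory machinery list (5.63), Fabp7 (6.00), Col1a2 (5.53), Ccnd1 (3.09) and Tgfbi (3.61), and nerve 1 was highest for Cd4 (2.04) and Hmga2 (0.861).

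The libraries left out of the comparison held signal of the genes that chose them, Bpifa2 at 235222 CPM in MPNST 2 (highest nerve 15.1) and Th at 1736 CPM in MPNST 6 (highest nerve 171).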

How the results depend on the processing

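Of 5650 higher and 4769 lower calls, glmTreat against a log2 change of 1 left 2854 and 2858, all 6 MPNST libraries gave 4527 and 3007, the first column run gave 3447 higher and the second 3199. Leaving out 1 library in turn gave 4924 to 5783 higher and 4367 to 5498 lower calls, and 9302 to 9892 of the 10419 genes remained called. Other alternatives stayed within 1.5 times. Of 4413 values recomputed for 153 named genes, 4278 kept their direction and side of the threshold, 114 lost and 9 gained the call, and 12 turned sign. Alternatives that gave no value for a gene are not counted. Cdkn2a, Pdgfra, Etv4, Twist1 and Hmga2 had values in 28 of 29 alternatives, and Acta1 in 27. The sign turned for Acta1 (-3.56 without MPNST 3, -3.84 without MPNST 1 and 3, -3.79 without MPNST 3 and nerve 6, -3.90 in the first run, -0.59 by limma-voom; at most 10.36 when leaving out 1 library, and 10.69 in the second run), Cd79a (-2.22 without MPNST 1, at most 4.71 when leaving out 1 library, 5.89 in the first run, -2.20 without 1 and 3, -2.99 in the second run), Sox10 (-0.16 without MPNST 5, at most 0.76 when leaving out 1 library, -0.56 in the first run and 0.89 in the second), Gjb1 (0.38) and Asns (0.062), the last 2 with all 6 MPNST. Those with MPNST 2 and 6 include RNA of other tissues. The cause of the other turns was not tested beyond the libraries named.

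No paired analysis was possible because the labels give no replicate numbers that the groups share. Libraries held 13886399 counts or more, and differences between genes of a few counts were not detectable. Genes tested only because the tumours expressed them (Hox, lymphocyte, checkpoint and fat genes, and some chemokine, dendritic cell and neutrophil genes) had little room to be called lower.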

Other observations

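A set of 8 genes had no count in any nerve and at least 10 CPM on average in the kept tumours. Tnfsf18, a ligand of the T cell receptor GITR, was at 33.5, 0.913, 5.37 and 6.05 CPM and at least 386-fold higher than a floor of 3 counts over the 6 nerves. Mup10, a major urinary protein otherwise known from liver, was at 563, 11.5, 0 and 263 CPM, and the near-identical Mup11 and Mup16 were among the 8, so that reads may have been split between them uncertainly. Rpl10-ps3, a pseudogene of a ribosomal protein, was at 59.5, 46.2, 0 and 237 CPM, and Ppp1r27, a muscle phosphatase regulator, only in MPNST 3 at 66.4 CPM. These genes were chosen after their values were seen.

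Xist, transcribed in female cells, was at 926, 2.25, 18.5 and 3.6 CPM in the tumours and 0.051 to 472 CPM in nerve, so both groups held libraries with high and low levels. The labels do not give the sex of the animals.

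Srrm3, at 0 in all kept tumours, was at 72.4 CPM in MPNST 6, which was left out, where Actl6b was at 33.7 and Isl1 at 536 CPM.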
